A study of Mus musculus with 42 samples.

Results

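The 10 neuroectoderm genes described here were Sox1, Sox3, Pax6, Zic1, Irx3, Hesx1, Gsx1, Gbx2, Vax2 and Tubb3. They were taken from a given list and matched by symbol to the Ensembl identifiers of the files through the mouse GENCODE annotation, and all 10 were among the 14296 genes of the files. The samples were mouse embryonic stem cells of the W9.5 line, of strain background 129X1/SvJ, that were left to differentiate into embryoid bodies after withdrawal of the cytokine LIF. Poly-A RNA was sequenced every 6 h from 0 h, the undifferentiated cells, to 120 h, at 21 time points with 1 library each of the duplicate cultures A and B, 42 libraries in all. Every library came from the same line and strain, no course kept in LIF was among the samples analysed here, and time was the only condition that differed.

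Neuroectoderm is the layer of the early embryo from which the brain, spinal cord and eyes form. SOXB1 transcription factors mark its progenitors, homeobox and zinc finger factors of the PAX, ZIC, GBX, IRX, HESX, VAX and GSX families divide it into regions along the head-to-tail and back-to-belly axes, and neuronal tubulin is built as the progenitors become neurons. In culture, stem cells that lose the factors holding them undifferentiated can form such cells beside mesoderm and endoderm, and several of the same factors are also used in pluripotent or non-neural cells.

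Levels are log2 CPM, the log2 of read counts scaled to the normalized library size, so a level of 0 is 1 CPM and a difference of 1 is a doubling. Libraries held between 10120972 and 51652434 counted reads, with a median of 29692082, and 3 reads amounted to between 0.0571 and 0.316 CPM. Differences between time points are later minus earlier, each mean over both cultures (n = 2), with the standard error (SE) from limma, and a gene was called where the Benjamini-Hochberg adjusted p over all genes was under 0.0001. The RNA came from whole cultures, so fewer cells of a type and less RNA per cell cannot be told apart. The stem cell marker Pou5f1 stood at 9.88 in culture A and 10.08 in culture B at 0 h and still at 8.65 and 8.59 at 120 h. The cultures stood farthest apart at 96 h, where the median gap between A and B over all genes was 0.407, against 0.09 to 0.274 at the other time points, and 13.54% of genes differed by more than 1. Differences from or to 96 h are given with and without its libraries.

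The 5 genes called higher from 0 to 6 h are shown with the sequence just before their first GENCODE transcription start, because they are the ones that moved together in that span. RefSeq windows from 250 bases before to 50 bases after the RefSeq start were at hand for 8 of the genes (9 windows, 300 bases each, Pax6 having 2), and Sox3 and Vax2 had none. The RefSeq start can differ from the GENCODE start, as for Tubb3 and Zic1. The stretches run 5′ to 3′ on the strand of the gene in build GRCm38.p6, and capitals mark a CCAAT box (CCAAT), a GC box (GGGCGG), a cyclic AMP response element core (TGACGT) or a MYC-type E-box (CACGTG), searched on both strands.
Gbx2, chr1:89931180-89931329, minus strand: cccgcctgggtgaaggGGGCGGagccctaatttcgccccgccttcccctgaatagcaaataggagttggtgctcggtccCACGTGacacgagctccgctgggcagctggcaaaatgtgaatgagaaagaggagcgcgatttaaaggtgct
Pax6, chr2:105668746-105668895, plus strand: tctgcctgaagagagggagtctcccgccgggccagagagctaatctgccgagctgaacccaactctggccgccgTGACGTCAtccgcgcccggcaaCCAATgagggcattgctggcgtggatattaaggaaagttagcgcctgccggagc
Gsx1, chr5:147188546-147188695, plus strand: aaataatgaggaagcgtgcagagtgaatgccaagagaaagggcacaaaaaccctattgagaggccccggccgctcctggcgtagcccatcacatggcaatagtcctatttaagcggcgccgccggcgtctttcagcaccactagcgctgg
Tubb3, chr8:123411303-123411423, plus strand: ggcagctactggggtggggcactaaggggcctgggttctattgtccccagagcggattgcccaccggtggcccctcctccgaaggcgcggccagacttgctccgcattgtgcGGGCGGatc
Zic1, chr9:91365811-91365960, minus strand: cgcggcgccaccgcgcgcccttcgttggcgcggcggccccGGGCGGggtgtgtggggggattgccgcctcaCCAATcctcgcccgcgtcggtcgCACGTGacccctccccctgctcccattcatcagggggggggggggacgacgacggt

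No searched motif was shared by these 5 stretches, and the Gsx1 stretch held none of them. The capital run in the Pax6 stretch is 2 overlapping matches to TGACGT, read on either strand. Over the full windows, TGACGT was in 3 of the 9, both windows of Pax6 and that of Sox1, against 7.51% of the 32851 RefSeq mouse windows. CACGTG was in 2 against 7.15%, CCAAT was in 4 against 37.4% and GGGCGG was in 4 against 35.7%. The TATA box letters TATAAA were in 1 window, that of Hesx1, against 13.6% of all windows. CpG pairs numbered 37 for Sox1, 31 for Zic1, 27 for Gbx2, 26 for Tubb3, 19 for Gsx1, 18 and 16 for Pax6, 14 for Irx3 and 4 for Hesx1, against a median of 7 over all windows. The AP-1 letters TGACTCA (5.2% of all windows), the SOX core AACAAT (10.7%), the TCF/LEF core CTTTGAT (3.73%) and the homeodomain letters TAATTA (5.29%) were in none of the 9. These matches are descriptions of the letters in the windows, not sites.

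Over the whole course, 9 of the 10 genes changed with time in the limma F test, where 74.6% of all genes did, and Hesx1 was the gene that missed the threshold (adjusted p = 2.4e-04). The genes did not follow 1 course. Pax6, Zic1, Gsx1, Gbx2 and Tubb3 rose within 6 h. Sox3 was higher by 1.20 at 6 h, which was not called (adjusted p = 1.5e-04), rose further from 12 h on and crested at 48 h. Irx3 climbed from 12 to 114 h, Sox1 made a low crest near 42 h and a higher level from 102 h, Hesx1 appeared at 114 h, and Gbx2 and Vax2 fell between 24 and 72 h. From 0 to 6 h, 5 genes were called, all higher, where 26.3% of all genes were called, 11.8% higher and 14.5% lower. From 0 to 120 h, 8 were called, 6 higher and 2 lower, where 23.0% of all genes were called, 12.9% higher and 10.1% lower. The first count includes Gsx1, Pax6 and Zic1, and the second Hesx1, Pax6 and Zic1. These genes passed the authors' filter (above 1 CPM in at least 2 libraries) only through times at which they were high. Sox3 and Irx3, in the second count, were also under 1 CPM in both libraries at 0 h. Calls of all these genes against 0 h, and the counts that hold them, are descriptions. The median difference over the 10 genes, likewise a description, was 1.84 from 0 to 6 h and 3.27 from 0 to 120 h, against -0.05 and -0.02 over all genes.

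**Figure D1:**
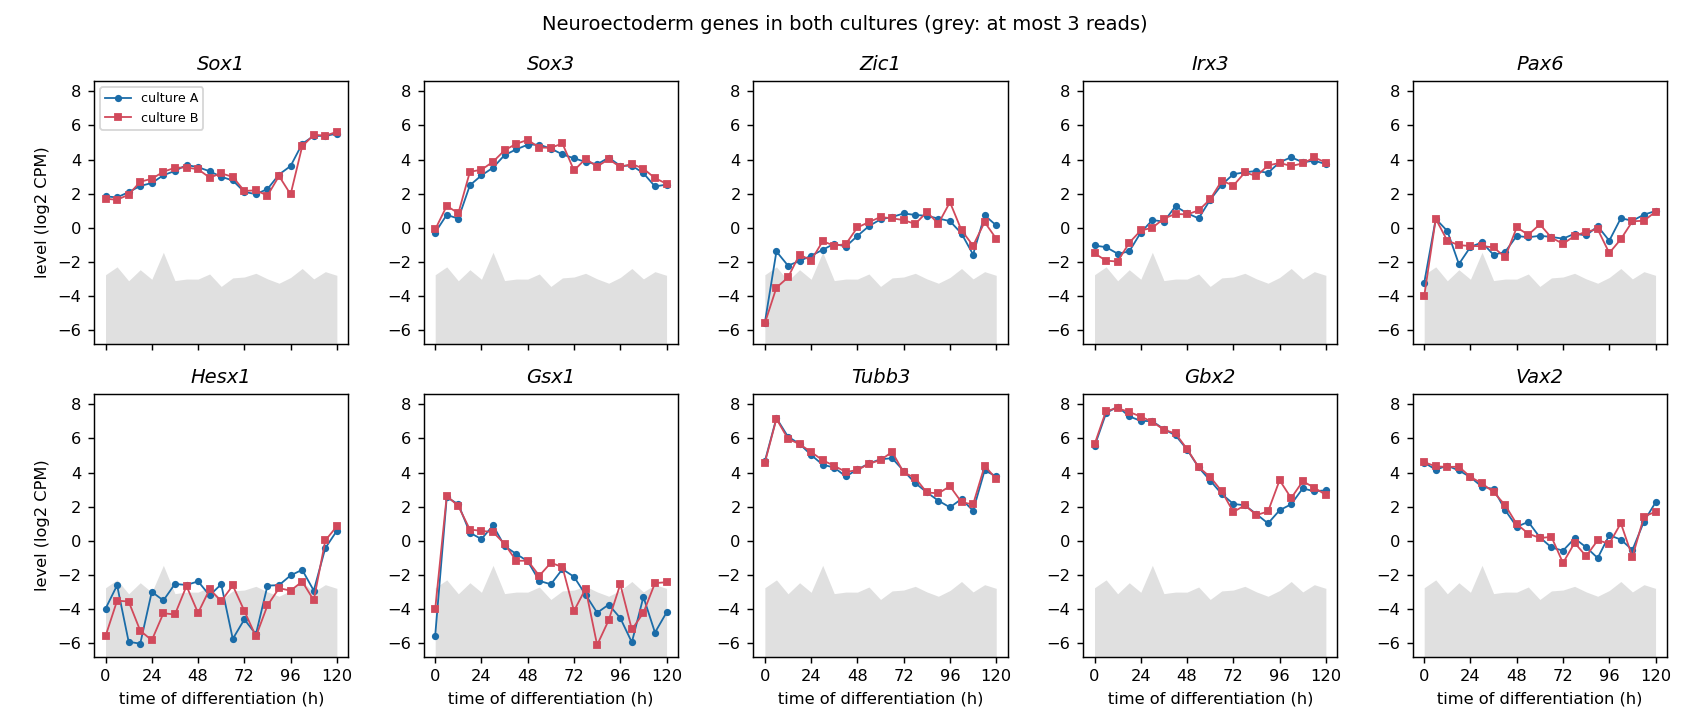
Level of each neuroectoderm gene (vertical axis, log2 CPM) against time of differentiation (horizontal axis, h), with circles for culture A, squares for culture B and grey where at most 3 reads were counted. Gbx2 crested at a mean of 7.82 at 12 h and Tubb3 at 7.17 at 6 h, and Sox1 ended at 5.56. Hesx1 values up to 108 h and late Gsx1 values lay in or near the grey band, and Hesx1 ended at 0.72.

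Intervals between these ends held fewer calls. From 6 to 24 h, Sox3 rose and Tubb3 fell, 2 of 10 where 11.4% of all genes were called, and over the first 24 h 5 genes were called, all higher, where 22.7% of all genes were called, 9.90% higher and 12.8% lower. From 24 to 48 h, Sox3 rose while Gbx2 and Vax2 fell (8.97% of all genes called), and from 48 to 72 h Irx3 rose while Gbx2 and Vax2 fell (9.38%). Tubb3 alone was called from 72 to 96 h (3.39% of all genes) and Sox1 alone from 96 to 120 h (1.94%). Across the longer spans, 6 genes were called from 0 to 48 h (30.4% of all genes) and 4 from 48 to 120 h (25.2%). Over the 20 steps of 6 h there were 9 calls of these genes, 5 of them in the step from 0 to 6 h. All genes were also called most often in that step, 26.3% of them, against 4.35% from 6 to 12 h and 2.04% or less in each later step. The median level over all genes moved by -0.118, -0.142 and -0.136 between 0 h and 6, 24 and 48 h in turn, by 0.153 between 48 and 120 h, and by less than 0.1 in the other spans.

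**Figure D2:**
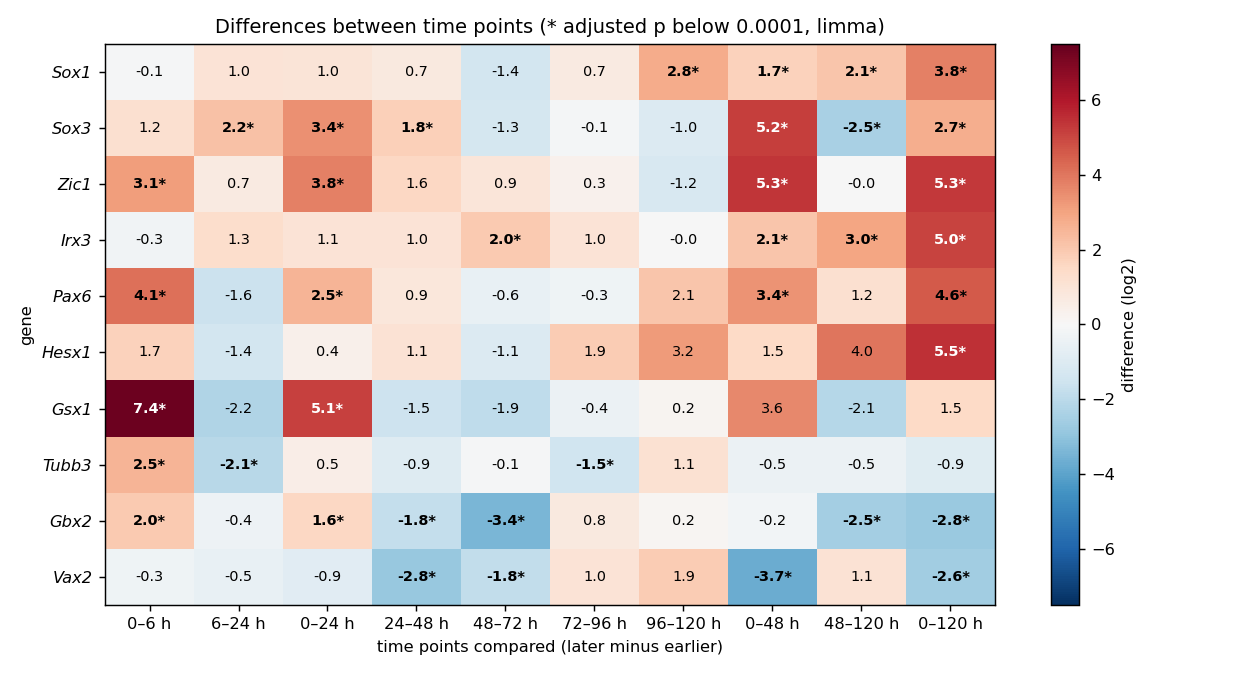
Differences in level (log2, later minus earlier) for each gene (rows) over 10 spans of time (columns), with red for higher and blue for lower at the later time and an asterisk where the adjusted p was under 0.0001. Gsx1 had the largest value, 7.38 from 0 to 6 h, and no gene was called in the same direction in every span.

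Sox1 (ENSMUSG00000096014.1, chr8:12395295-12400126, plus strand) encodes the SOXB1 factor most used to mark committed neural progenitors. Its level was 1.84 in A and 1.70 in B at 0 h, 1.78 and 1.64 at 6 h, 2.62 and 2.87 at 24 h, and 3.55 and 3.43 at 48 h. It then stood at 2.10 and 2.16 at 72 h, 3.62 and 1.96 at 96 h, 4.92 and 4.77 at 102 h, and 5.51 and 5.62 at 120 h. Both libraries thus lay higher at 48 h than at 0 h, lower at 72 h and highest at 120 h, and only at 96 h did the cultures part. Sox1 rose by 1.72 (SE 0.27) from 0 to 48 h (adjusted p = 4.6e-06), a call lost without culture A at 48 h (1.66, adjusted p = 2.1e-04) or culture B at 0 h (1.65, adjusted p = 2.1e-04). The difference from 48 to 72 h was -1.36 (SE 0.27, adjusted p = 2.6e-04) and was not called, but it was called without both 96 h libraries (-1.36, adjusted p = 3.9e-08), as was that from 0 to 24 h (0.97, adjusted p = 2.6e-06 against 0.0035 with them).

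Sox1 rose again from 96 to 120 h by 2.77 (SE 0.27, adjusted p = 3.8e-08), and by 3.61 without culture A at 96 h and 1.94 without culture B, each called. The single step from 96 to 102 h was called at 2.06 (SE 0.27, adjusted p = 2.6e-05), where 0.315% of all genes were. That step was 1.22 without culture B at 96 h (adjusted p = 1.8e-04), 1.98 without culture A at 102 h (adjusted p = 0.0011) and 2.13 without culture B at 102 h (adjusted p = 8.8e-04), and none of those was called. From 0 to 120 h Sox1 rose by 3.79 (SE 0.27, adjusted p = 3.7e-12).

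Sox3 (ENSMUSG00000045179.8, chrX:60891366-60893430, minus strand) encodes a SOXB1 factor of the early neural plate that is close in sequence to SOX1. Its level was -0.28 in A and -0.10 in B at 0 h, 0.76 and 1.28 at 6 h, 3.07 and 3.40 at 24 h, and 4.87 and 5.15 at 48 h, its highest mean (5.01). It stood at 4.07 and 3.36 at 72 h, 3.63 and 3.56 at 96 h, and 2.53 and 2.58 at 120 h. The rise to 48 h was 5.2 (SE 0.25, adjusted p = 7.5e-16), a 36.7-fold difference, and by 120 h the level had dropped by 2.46 again (log2, SE 0.25, adjusted p = 3.1e-09). The values from 0 to 6 h (1.20, adjusted p = 1.5e-04) and from 48 to 72 h (-1.29, adjusted p = 1.5e-04) were not called. The value from 0 to 6 h was called once libraries were centred on their medians (1.32, adjusted p = 5.5e-05), and that from 48 to 72 h was called likewise (-1.36, adjusted p = 9.6e-05), with voom weights (-1.26, adjusted p = 2.3e-05), on the log2(CPM + 1) scale (-1.23, adjusted p = 6.1e-05) and without culture A at 72 h (-1.65, adjusted p = 7.0e-05).

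The steepest 6 h step of Sox3 lay between 12 h (0.53 and 0.85) and 18 h (2.49 and 3.28), with a difference of 2.19 (SE 0.25, adjusted p = 1.5e-06), called in 0.420% of all genes. Without culture A at 12 h it was 2.03 (adjusted p = 2.1e-04) and without culture B at 18 h it was 1.80 (adjusted p = 3.9e-04). From 24 to 48 h Sox3 rose by a further 1.77 (SE 0.25, adjusted p = 2.1e-06), which was not called without culture A at 24 h (1.61, adjusted p = 2.4e-04) or culture B at 48 h (1.63, adjusted p = 2.3e-04). The pair of SOXB1 genes shared the higher level at 48 h than at 0 h, but Sox1 ended at its highest level and Sox3 ended 2.46 below its crest, and their Pearson correlation over the 21 mean levels was 0.25.

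Pax6 (ENSMUSG00000027168.15, chr2:105668900-105697364, plus strand) encodes a paired-box factor of the forebrain, the spinal cord and the eye. It was counted with 2 reads in A and 1 in B at 0 h and with 39 and 24 at 6 h, a 22.4-fold higher share of reads (95% exact interval of counting error 7.33 to 112). Its level was 0.52 in both cultures at 6 h, -1.12 and -1.07 at 24 h, -0.48 and 0.02 at 48 h, -0.64 and -0.94 at 72 h, -0.76 and -1.48 at 96 h, and 0.98 and 0.94 at 120 h. Pax6 therefore had an early pulse and a late return to a like level. Only 11 libraries, none of them at 0 h, were above 1 CPM, so Pax6 passed the authors' filter through the times at which it was high. Its differences from 0 h are given as a description. The rise from 0 to 6 h was 4.14 (SE 0.40, adjusted p = 1.6e-09), and the level at 24 h stayed above that at 0 h (2.53, SE 0.40, adjusted p = 5.9e-06). The call from 0 to 24 h was lost without the 24 h library of A (2.55, adjusted p = 1.7e-04), that of B (2.50, adjusted p = 1.9e-04) or the 0 h library of B (2.14, adjusted p = 6.2e-04). The values from 6 to 24 h (-1.61, adjusted p = 0.0019) and from 96 to 120 h (2.08, adjusted p = 4.9e-04) were not called, the latter being 2.44 without culture A and 1.72 without culture B at 96 h.

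Gsx1 (ENSMUSG00000053129.5, chr5:147188696-147190947, plus strand), a homeobox gene of progenitors in the ventral forebrain and the dorsal spinal cord, had the largest early rise. It was counted with 0 reads in A and 1 in B at 0 h, 161 and 106 at 6 h, 133 and 168 at 12 h, 38 and 42 at 24 h, 12 and 12 at 48 h, 8 and 1 at 72 h, 1 and 4 at 96 h, and 1 and 4 at 120 h. Every library from 6 to 48 h thus held more reads of it than any library at 0 h or from 84 h on. Only the 10 libraries from 6 to 30 h were above 1 CPM, so Gsx1 passed the authors' filter through the times at which it was high. Its differences from 0 h are given as a description. The share of reads was 285-fold higher at 6 h than at 0 h (exact interval 50.7 to 11300), with a fitted difference of 7.38 (SE 0.83, adjusted p = 2.9e-08). It was still 59.4-fold higher at 24 h (10.4 to 2380, adjusted p = 1.0e-05). The difference from 6 to 24 h, -2.25 (SE 0.83, adjusted p = 0.034), was not called. The 24 h call was lost without culture A at 0 h (4.35, adjusted p = 9.3e-04), culture A at 24 h (5.36, adjusted p = 1.7e-04) or culture B at 24 h (4.89, adjusted p = 4.4e-04). At 120 h the interval of the ratio to 0 h, 0.515 to 218, included 1, and 16 of the 42 libraries held at most 3 reads of Gsx1.

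Zic1 (ENSMUSG00000032368.8, chr9:91358058-91365810, minus strand) encodes a zinc finger factor of the dorsal neural tube. No read of it was counted at 0 h, 10 and 1 were at 6 h, 11 and 7 at 24 h, 20 and 28 at 48 h, 65 and 35 at 72 h, 45 and 74 at 96 h, and 30 and 15 at 120 h. Against a floor of 3 reads over both libraries of 0 h, its share of reads was at least 3.92-fold higher at 6 h, at least 4.46-fold higher at 24 h, at least 13.4-fold higher at 48 h and at least 13.8-fold higher at 120 h. All 4 differences were called (adjusted p from 2.5e-06 at 6 h to 1.9e-10 at 48 h), but the level at 0 h only stands for 0 reads. Only 19 libraries, all from 54 h on, were above 1 CPM. Zic1 thus passed the authors' filter through the times at which it was high, and its differences from 0 h are given as a description. The 6 h call rested on culture A, with an adjusted p of 5.4e-04 without it, and it was also lost with voom weights (adjusted p = 0.0019) and on the log2(CPM + 1) scale (adjusted p = 0.19). On that scale the differences at 24 h (0.34, adjusted p = 0.095) and 120 h (0.86, adjusted p = 1.1e-04) were not called either. Zic1 kept a plateau between 0.10 and 1.5 from 54 to 96 h in every library, stood at -1.57 and -1.05 at 108 h, and returned to 0.73 and 0.33 at 114 h, a step that was not called (1.84, SE 0.47, adjusted p = 0.0058).

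Irx3 (ENSMUSG00000031734.11, chr8:91798525-91802067, minus strand) encodes an Iroquois homeobox factor that divides the neural plate and the ventral spinal cord, and it is also made outside the nervous system. Its level was -1.04 in A and -1.5 in B at 0 h, -1.14 and -1.93 at 6 h, -0.28 and -0.16 at 24 h, and 0.85 and 0.78 at 48 h. It reached 3.14 and 2.47 at 72 h, 3.84 and 3.8 at 96 h, 3.93 and 4.12 at 114 h, its highest mean, and 3.73 and 3.82 at 120 h. The 2 libraries of each later of these times from 24 to 96 h lay above both libraries of the time before. Irx3 rose by 2.08 from 0 to 48 h (SE 0.27, adjusted p = 2.1e-07), by 2.96 from 48 to 120 h (SE 0.27, adjusted p = 5.4e-10) and by 5.05 over the whole course (adjusted p = 8.3e-15), a 33.1-fold difference. The rise from 48 to 72 h was 1.99 (SE 0.27, adjusted p = 1.9e-06), and it was not called without culture A at 72 h (1.66, adjusted p = 2.5e-04) or culture B at 48 h (1.96, adjusted p = 1.1e-04).

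Hesx1 (ENSMUSG00000040726.8, chr14:26994416-27002329, plus strand) encodes a homeobox repressor of the anterior neural plate and the pituitary. It was at or near the limit of detection up to 108 h, where no library held more than 9 reads, and 22 of the 42 libraries held at most 3. Reads then numbered 15 in A and 25 in B at 114 h and 41 and 43 at 120 h, with levels of 0.59 and 0.85 at 120 h. Against 1 read over both libraries of 0 h, the share of reads at 120 h was 77.3-fold higher (exact interval 13.5 to 3090), with a fitted difference of 5.5 (adjusted p = 5.3e-05). Only the 2 libraries of 120 h were above 1 CPM, so Hesx1 passed the authors' filter through the time at which it was high, and its difference from 0 h is given as a description. Leaving out any of the 4 libraries lost that call, with adjusted p of 1.7e-04 and 0.0032 without culture A and B at 0 h and 8.4e-04 and 0.0013 without culture A and B at 120 h. The difference from 96 to 120 h (3.19, SE 1.02, adjusted p = 0.03) was not called, and was 3.63 without culture A and 2.74 without culture B at 96 h.

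Gbx2 (ENSMUSG00000034486.7, chr1:89927956-89931179, minus strand) encodes a homeobox factor of the anterior hindbrain and is also a known target of LIF and STAT3 in stem cells. Its level was 5.54 in A and 5.65 in B at 0 h, 7.48 and 7.62 at 6 h, 7.87 and 7.77 at 12 h, 7.03 and 7.28 at 24 h, and 5.35 and 5.38 at 48 h. It stood at 2.16 and 1.69 at 72 h and at 1.02 and 1.72 at 90 h, the lowest mean, then at 1.79 and 3.55 at 96 h and 2.96 and 2.69 at 120 h. The early rise, 1.96 from 0 to 6 h (SE 0.30, adjusted p = 3.3e-06), was not called without culture A at 0 h (1.91, adjusted p = 1.4e-04) or culture B at 6 h (1.89, adjusted p = 1.6e-04). The largest drop was from 48 to 72 h, where Gbx2 fell by 3.44 (log2, SE 0.30, adjusted p = 1.7e-09), a 10.8-fold difference.

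The smaller differences of Gbx2 were less firm, with 1.56 from 0 to 24 h (SE 0.30, adjusted p = 7.9e-05) and -1.79 over the next 24 h (SE 0.30, adjusted p = 3.0e-05). Without the 0 h libraries of A and B in turn the first had adjusted p of 0.0017 and 9.9e-04, and without the 24 h libraries of A and B 6.2e-04 and 0.0026. The second had 3.3e-04 and 0.0015 without the 24 h libraries and 8.2e-04 and 7.0e-04 without the 48 h libraries, so neither was called with any library left out. From 0 to 120 h Gbx2 fell by 2.77 (SE 0.30, adjusted p = 1.1e-08).

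Vax2 (ENSMUSG00000034777.1, chr6:83711264-83738313, plus strand), a homeobox gene of the ventral eye, was highest in the undifferentiated cells. Its level was 4.58 in A and 4.61 in B at 0 h, 4.17 and 4.36 at 6 h, 3.73 and 3.74 at 24 h, and 0.82 and 0.98 at 48 h. It stood at -0.58 and -1.30 at 72 h, the lowest mean, 0.33 and -0.17 at 96 h, -0.54 and -0.95 at 108 h, 1.13 and 1.42 at 114 h, and 2.25 and 1.70 at 120 h. Vax2 fell by 3.70 from 0 to 48 h (SE 0.33, adjusted p = 2.2e-10), of which 2.83 lay between 24 and 48 h (SE 0.33, adjusted p = 1.1e-07). It ended 2.62 below its start (SE 0.33, adjusted p = 1.3e-07). The difference from 48 to 72 h was -1.84 (SE 0.33, adjusted p = 6.9e-05) and the step from 108 to 114 h was 2.02 (SE 0.33, adjusted p = 8.5e-05), where 1.72% of all genes were called.

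Neither of these smaller Vax2 values was called with any library left out. The one from 48 to 72 h had adjusted p of 9.2e-04 and 0.002 without A and B at 48 h and of 1.0e-04 and 0.0045 without A and B at 72 h. The one from 108 to 114 h had 7.0e-04 and 0.0044 without A and B at 108 h and 7.3e-04 and 0.0039 without A and B at 114 h.

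Tubb3 (ENSMUSG00000062380.3, chr8:123411424-123422015, plus strand) encodes the beta-tubulin of neurons. Its level was 4.66 in A and 4.58 in B at 0 h, 7.19 and 7.15 at 6 h, 6.10 and 5.97 at 12 h, 5.03 and 5.2 at 24 h, and 4.18 and 4.14 at 48 h. It came to 4.84 and 5.21 at 66 h, 4.10 and 4.01 at 72 h, 1.96 and 3.2 at 96 h, 1.76 and 2.13 at 108 h, 4.12 and 4.39 at 114 h, and 3.78 and 3.63 at 120 h. The curve had a sharp early pulse, a broad shoulder before 72 h, a low at 108 h and a jump at 114 h. Tubb3 rose by 2.55 from 0 to 6 h (SE 0.23, adjusted p = 3.9e-10), a 5.86-fold difference. It fell by 2.06 (log2) from 6 to 24 h (SE 0.23, adjusted p = 3.9e-08). The step from 108 to 114 h was 2.31 (SE 0.23, adjusted p = 7.6e-08), with 115 and 122 reads at 108 h against 361 and 528 at 114 h. It was between 2.13 and 2.50 with each library left out, called each time.

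From 72 to 96 h Tubb3 fell by 1.48 (log2, SE 0.23, adjusted p = 2.5e-05), and this value turned on the 96 h libraries. It was -0.85 without culture A at 96 h (adjusted p = 6.1e-04) and -2.10 without culture B (adjusted p = 6.2e-09), and it was not called without culture A (-1.43, adjusted p = 4.3e-04) or B (-1.52, adjusted p = 6.1e-04) at 72 h. The difference from 96 to 120 h, 1.13 (SE 0.23, adjusted p = 8.7e-04), was called at 1.75 without culture B at 96 h (adjusted p = 1.5e-07). At 120 h Tubb3 lay 0.91 below its level at 0 h (SE 0.23, adjusted p = 0.0013), not called, though it was without both 96 h libraries (adjusted p = 7.9e-06).

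Levels of different genes are compared as RPKM, the CPM value divided by the exon length in kilobases, with no test. At 0 h the order was led by Gbx2 (21.4 in A and 23.0 in B), Vax2 (19.2 and 19.6) and Tubb3 (13.5 and 12.8), and Sox1 followed at 0.736 and 0.670. The remaining genes lay below these 4, Sox3 at 0.390 and 0.442, Irx3 at 0.169 and 0.120, and the rest at 0.0339 or less in every library. At 48 h Sox3 (14.1 and 17.2) had moved up to stand next to Gbx2 (18.7 and 19.1), above Tubb3 (9.69 and 9.46). At 120 h the order was Sox1 (9.42 and 10.2), Tubb3 (7.35 and 6.63), Irx3 (4.81 and 5.11), and then Gbx2 (3.56 and 2.96), Vax2 (3.82 and 2.59) and Sox3 (2.79 and 2.88), whose values overlapped. Hesx1 (1.19 and 1.42) came next, and Pax6, Zic1 and Gsx1 stayed under 0.2, with Pax6 (0.167 and 0.162) inside the range of Zic1 (0.191 and 0.109).

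**Figure D3:**
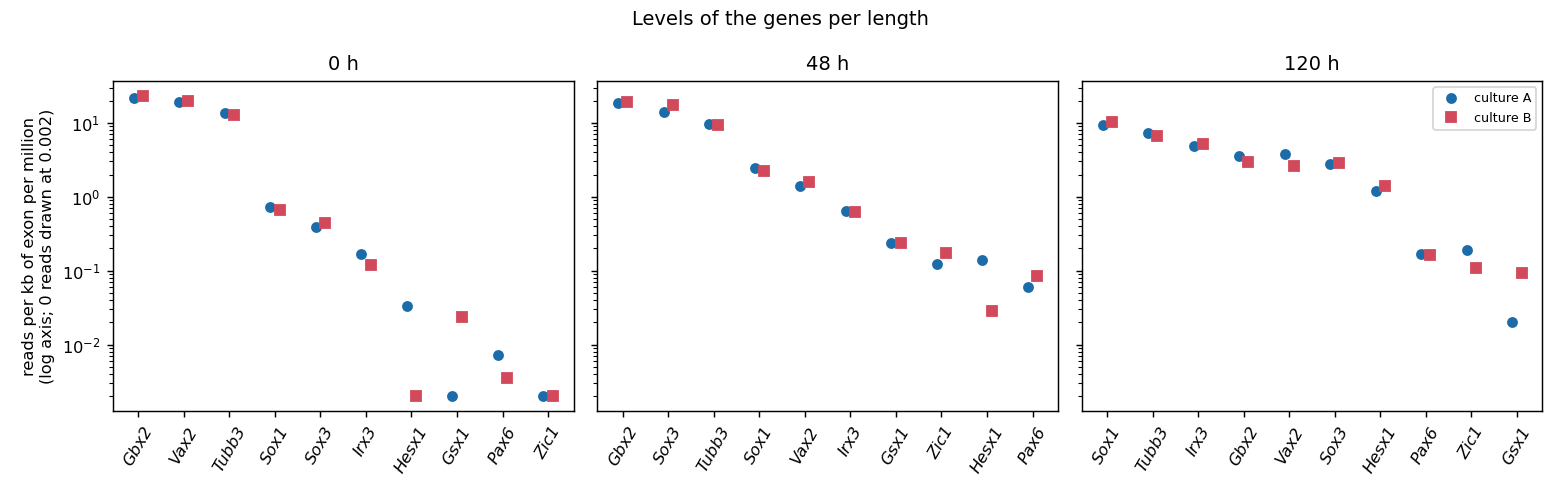
Level per exon length (vertical axis, RPKM, logarithmic) of each gene at 0, 48 and 120 h, ordered by mean, with circles for culture A and squares for culture B, and 0 reads drawn at 0.002. Gbx2 led at 0 h (mean 22.2) and at 48 h (18.9), and Sox1 led at 120 h (9.79).

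Across the 21 mean levels, Gbx2 and Vax2 had a Pearson correlation of 0.89, Gbx2 and Gsx1 of 0.85, and Gsx1 and Tubb3 of 0.82. Irx3 had -0.91 with Gbx2 and -0.85 with Vax2, and Zic1 had 0.76 with Sox3. These are descriptions over time points of the same libraries, in which neighbouring values share the course of the cultures. In both cultures taken apart, the genes most like Irx3 were Tnfrsf19, a receptor of the TNF family (lower correlation of A and B 0.984), Ghr, the growth hormone receptor (0.978), and Thsd7a (0.971). Those like Gbx2 included Nmt1 (0.980) and Tns3 (0.974), and those most like Vax2 were Cdyl2 (0.967), Gm1070 (0.965) and Mybl2 (0.962). Above 0.9 there were 250 genes for Irx3, 203 for Gbx2 and 112 for Vax2.

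The other genes had few or no like courses by this score, which is limited for genes with few reads. The correlation of the gene itself between A and B was only 0.673 for Hesx1, 0.872 for Pax6 and 0.879 for Gsx1. Sox3 had 7 above 0.9, led by Enpp2, which makes lysophosphatidic acid (0.938), Map3k5 (0.936) and 2810459M11Rik (0.927). Zic1 had 2, Nefl, the light neurofilament chain (0.919), and Shisa6 (0.9), followed by Parp8 (0.891). Gsx1 and Tubb3 had 1 each. Armc5 (0.910), Rarg (0.898) and Tbrg4 (0.897) were the most like Gsx1. Palm3 (0.902), Ubtf (0.892) and Pcolce2 (0.883) were the most like Tubb3. For Sox1 the most like were Errfi1 (0.867), Tal2 (0.864) and Bcl2l11 (0.860). For Pax6 they were Flna (0.833), Zc3h12c (0.824) and Zdbf2 (0.815). For Hesx1 they were Flrt3 (0.743), Cdkn2b (0.701) and Mex3a (0.696). Ranked by Spearman correlation instead, only Nefl, Tnfrsf19, Gm1070, Tbrg4 and Palm3 were again among the 3 most like their gene.

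Gbx2, Irx3 and Vax2 are each overlapped by a gene on the opposite strand, with start sites 945, 1652 and 937 bases apart. The partners D130058E05Rik, Irx3os and Vax2os followed them over the 21 means with correlations of 0.95, 0.99 and 0.97. The libraries were stranded, but the strand setting of the counting is not given in the sources used here, so reads of a gene and of its partner cannot be fully told apart. For every 100 reads of Gbx2, D130058E05Rik had 21.1 in A and 21.4 in B at 0 h and 5.49 and 5.94 at 12 h, so that the ratio was lower in both cultures where Gbx2 was highest. Vax2os had 62.3 and 66.7 reads per 100 of Vax2 at 0 h and 126 and 89.1 at 48 h, where 63 and 49 reads of Vax2os stood beside 50 and 55 of Vax2. Irx3os had 17.3 and 14.7 reads per 100 of Irx3 at 72 h, 16.5 and 9.81 at 96 h, and 12.3 and 14.9 at 120 h.

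**Figure D4:**
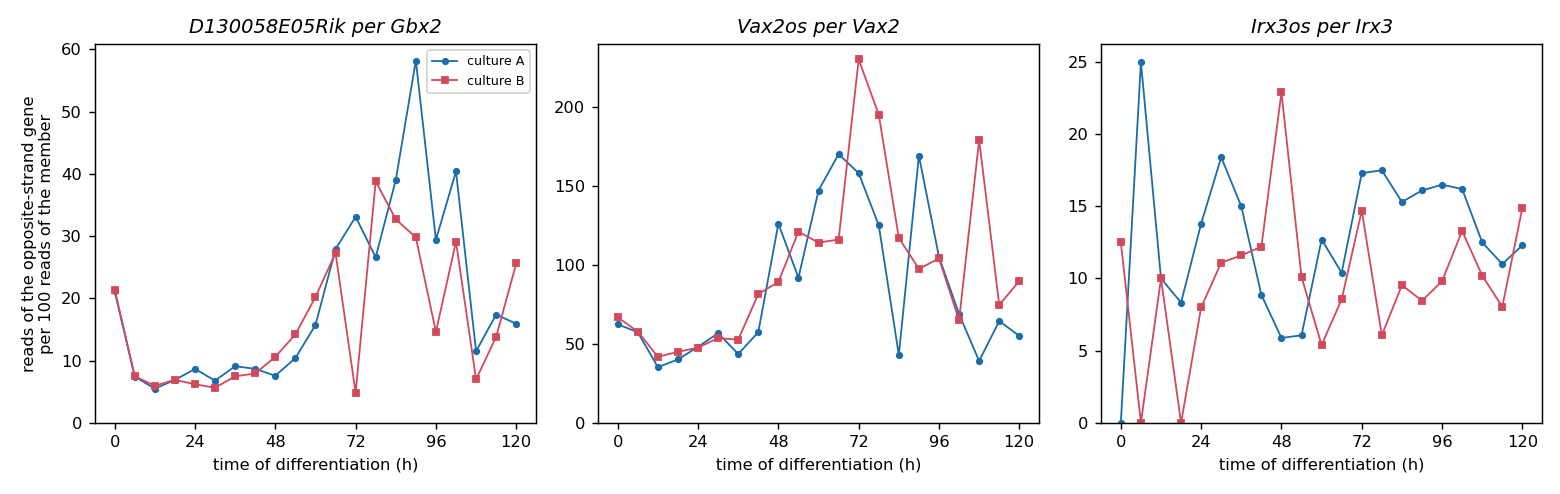
Reads of the opposite-strand gene per 100 reads of its partner (vertical axes, on a different scale in each panel) against time of differentiation (horizontal axes, h), with circles for culture A and squares for culture B. For Gbx2 the ratio was 21.1 and 21.4 at 0 h and 5.49 and 5.94 at 12 h, and Vax2os outnumbered Vax2 in several libraries after 48 h.

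The duplicate cultures were alike for the well-counted genes, with correlations between A and B over the course of 0.943 for Sox1, 0.975 for Sox3, 0.982 for Gbx2, 0.983 for Irx3, 0.968 for Vax2 and 0.974 for Tubb3, against 0.673 for Hesx1. Over all times, culture B was not called different from A for any of the 10 genes, where 0.630% of all genes were called. At 96 h, 5 of the 10 genes differed by more than 1 between the cultures, and 4 of those had over 10 reads in both libraries. Sox1 was higher in A (3.62 against 1.96), and Gbx2 (1.79 against 3.55), Tubb3 (1.96 against 3.2) and Zic1 (0.39 against 1.5) were higher in B. In the same libraries the primitive streak genes T (5.69 in A and 7.83 in B) and Eomes (5.24 and 7.47) were also higher in B. All 8 streak and mesoderm genes in the files were higher in B there, with a summed level of 673 CPM against 196 in A, and so were 5 of 6 endoderm genes (46.6 against 28.8 CPM) and 8 of 10 pluripotency genes (2110 against 1280 CPM). Of the primed epiblast genes 2 of 7 were higher in B (498 against 685 CPM), and of the surface ectoderm and crest genes 5 of 7 were (743 against 592 CPM). None of these markers was at 0 reads at 96 h, and their part in the gaps of the neuroectoderm genes was not tested. With 1 library of each culture there is no test of a gap at 1 time point. At every other time point no more than 1 gene with over 10 reads in both libraries had a gap above 1, namely Vax2 at 90 h and Pax6 at 102 h.

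**Figure D5:**
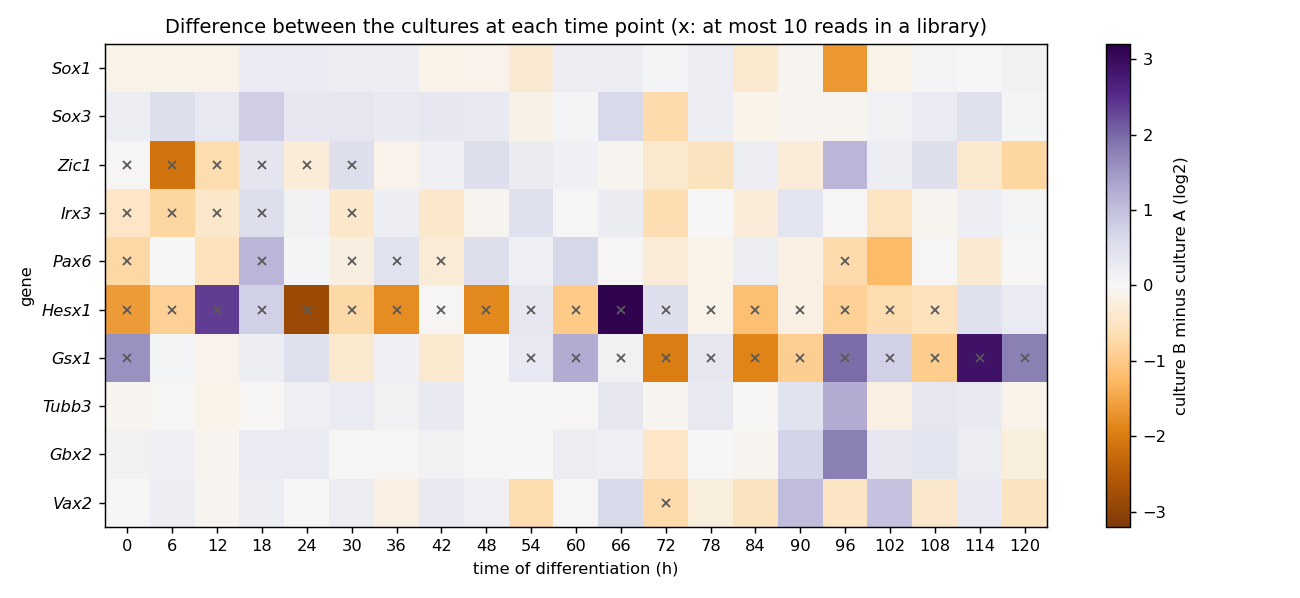
Level in culture B minus level in culture A (colour, log2) for each gene (rows) at each time point (columns, h), with a cross where either library held at most 10 reads. Sox1 (-1.67), Gbx2 (1.76) and Tubb3 (1.25) had their largest gaps at 96 h, and most other deep colours carry a cross.

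Other neural genes were read from fixed lists in the same fit. A listed gene was in the files only if it passed the authors' filter of more than 1 CPM in at least 2 libraries. A gene with few reads at 0 h thus entered through later times, so counts of listed genes that rose are descriptions. Of 55 further transcription factors of the neural plate and its patterning, 25 were in the files, and from 0 to 120 h 15 of them rose and 4 fell, with a median difference of 2.54, where 12.9% of all genes were higher and 10.1% lower. From 0 to 6 h 9 rose and none fell, with a median of 1.03, where 11.8% of all genes were higher and 14.5% lower. Sp8, a zinc finger factor of the anterior neural ridge, was -3.24 in A and -3.27 in B at 0 h, 1.43 and 1.83 at 48 h, and 3.54 and 3.41 at 120 h (adjusted p = 4.7e-16 from 0 to 120 h). Irx5, an Iroquois gene of the same cluster as Irx3, went from -5.56 and -2.42 at 0 h to 0.87 and 0.75 at 48 h and 2.57 and 2.77 at 120 h (adjusted p = 3.3e-11). Pax3, a factor of the dorsal neural tube, was below -2 in both libraries at 0, 6, 24, 48, 72 and 96 h and reached 2.14 and 2.07 at 120 h (adjusted p = 1.1e-07). Zic2 (5.59, SE 0.13), Zic5 (3.19, SE 0.15), Sox11 (3.46, SE 0.17), Otx2 (1.22, SE 0.17) and En1 (6.48, SE 0.67) were also higher at 120 h. In contrast, Gbx1 (-4.50, SE 0.64), Nkx6-2 (-4.11, SE 0.35), Pax8 (-2.09, SE 0.41) and Sox2 (-0.93, SE 0.10) were lower. The homeobox gene Gbx1 thus fell over the same span as its relative Gbx2.

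Of 27 genes of neural progenitors and neurons, 21 were in the files, and from 0 to 120 h 7 rose and 2 fell, with a median of 0.25, beside the same 12.9% and 10.1% of all genes. Nes, the intermediate filament of progenitors, stood at 3.82 and 3.47 at 0 h, 5.87 and 5.73 at 6 h, 3.95 and 4.22 at 24 h, 8.29 and 8.14 at 108 h, and 7.26 and 7.08 at 120 h. Nefm, a neurofilament chain, and Cdh2, the neural cadherin, rose by 5.67 (SE 0.30, adjusted p = 5.3e-15) and 5.54 (SE 0.34, adjusted p = 1.2e-13). The neuronal RNA-binding gene Elavl3 (-3.50, SE 0.26) and the tubulin gene Tubb2b (-0.92, SE 0.09) fell. From 0 to 6 h, when Tubb3 rose, 7 of these 21 rose and 5 fell, beside 11.8% and 14.5% of all genes.

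Secreted or membrane inhibitors of BMP, Wnt and Nodal signalling, which favour neural fate, made a list of 12, with 10 in the files, and from 0 to 120 h 5 rose and 1, Sfrp1, fell (-1.93, SE 0.14), with a median of 0.65, again beside 12.9% of all genes higher and 10.1% lower. The BMP antagonist Nog stood at -0.61 and -0.73 at 0 h, -3.52 and -3.01 at 48 h, and 3.0 and 3.26 at 120 h (adjusted p = 3.6e-07 from 0 to 120 h). The activin antagonist Fst went from -0.01 and -0.23 at 0 h to 3.74 and 3.58 at 6 h and 4.32 and 4.24 at 120 h (adjusted p = 1.2e-11). The Wnt antagonist Dkk1 had no read at 0 h and reached 2.44 and 2.55 at 120 h (adjusted p = 1.2e-08), with -0.09 in A against 3.09 in B at 96 h.

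Markers of other cell types moved over the same span, and their part in the levels above was not tested. From 0 to 120 h, 6 of 8 primitive streak and mesoderm genes in the files rose (median 5.50), 3 of 6 endoderm genes (2.07), 4 of 7 surface ectoderm and neural crest genes with 1 lower (2.54), and 6 of 7 primed epiblast genes with 1 lower (2.07). Of 10 pluripotency genes 6 fell and 1 rose (-1.03), and over all genes 12.9% rose and 10.1% fell. Summed over the list, streak and mesoderm genes went from 15.7 in A and 15.4 in B at 0 h to 124 and 107 CPM at 120 h, endoderm genes from 7.88 and 8.92 to 44.3 and 45.7 CPM, and surface ectoderm and crest genes from 101 and 110 to 1850 and 1970 CPM. At 0 h 2 streak genes in A and 1 in B had no read, and 1 endoderm gene in each. Foxd3, Otx2, Pou3f1 and Sox2 each stand in more than 1 of these lists. T, the marker of the streak, rose by 6.61 (SE 0.45, adjusted p = 1.4e-12), from -1.17 and -2.13 to 5.12 and 4.81, and the simple-epithelium keratin Krt8 rose from 5.40 and 5.6 to 10.01 and 10.11. The keratin Krt18 stood at 9.5 and 9.59 at 120 h, so Krt8 and Krt18 made up most of the surface ectoderm and crest sums then. In that list Tfap2c (2.54, SE 0.24) and Snai2 (2.70, SE 0.34) also rose, Foxd3 fell (-2.64, SE 0.36), and Sox10 and Tfap2a were not called. The streak and mesoderm sums had been higher before 120 h, at 196 and 673 CPM at 96 h and 210 and 285 CPM at 108 h. At 108 h the endoderm sums were 39.6 and 39.1 CPM, and the surface ectoderm and crest sums were 2020 and 1950 CPM. Sox1 and Hesx1 thus reached their highest levels in cultures in which the summed levels of these 3 lists were higher than at 0 h.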

How the data were processed

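The study sequenced stranded poly-A RNA libraries (Agilent SureSelect, paired 100-base reads on a HiSeq) of mouse W9.5 embryonic stem cells at 21 time points of embryoid body formation, in duplicate cultures. Per its methods, the authors used Trim Galore for trimming, TopHat2 for alignment to mm10 and HTSeq for counts per GENCODE vM2 gene, kept genes above 1 CPM in at least 2 libraries, normalized with edgeR and deposited the log2 CPM values of voom (limma), 1 table per library. Tool versions are not given in the sources used here.

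From the deposited log2 values, reads were recovered with the voom offset of 0.5; they came out whole within 2.91e-08. They served for depth, RPKM (exon union length of GENCODE vM21, same build), intervals and floors, which cover counting error only. Differences were fitted with limma 3.58.1 (R 4.3.3; lmFit, eBayes with trend, a factor of 21 time points, 21 residual degrees of freedom) over all 14296 genes, with Benjamini-Hochberg adjustment and a threshold of 0.0001. The fit was tested on simulated data. With 1 library of each of 2 cultures at a time point, p-values measure the spread between these libraries. Tables and plots used Python 3.11.15, numpy 2.4.6, pandas 2.3.3, scipy 1.17.1 and matplotlib 3.10.9. Promoter windows are those of RefSeq.

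Of the 14296 identifiers, 14177 matched the annotation and so had a symbol. All 10 listed genes are described, with values of both libraries at 0, 6, 24, 48, 72, 96 and 120 h and at their extremes. Also named by rule are the 3 genes most like each by the lower Pearson correlation of both cultures (among genes that passed the F test and averaged 0 log2 CPM or more), overlapping or neighbouring genes, and the 3 listed genes of each pathway list with the largest called difference from 0 to 120 h. Of the genes this rule names, 1 is not reported here. The genes and lists were chosen with earlier results of these data known, and the other list genes named were picked after their values were seen. Alternatives were the replicate block, voom weights, eBayes without trend, median centring, log2(CPM + 1), a filter on a mean of at least 0, a threshold of 0.05 and each library left out. Fits without both 96 h libraries were added after seeing the data.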

Additional observations from a re-analysis of the deposited data

How the results depend on the processing

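Under other settings, 69 differences of the 10 genes were followed, 42 of them past the threshold of 0.0001, and 0 reversed. They were chosen for an adjusted p under 0.05 in the main fit, or under 0.0001 for the 6 h steps after the first. The refits used the same libraries, so a reversal was unlikely from the start. In this section, shares of all genes stand beside the counts at 0.05 only. They were not worked out for the changed fits, whose counts are descriptions. Fitting only genes that averaged 0 log2 CPM or more removed Pax6, Zic1, Hesx1 and Gsx1 by construction, leaving 2 genes called between 0 and 6 h, 2 between 0 and 24 h, and between 0 and 120 h 5 genes, 11 of the other neural factors and 3 of the inhibitors. At an adjusted p of 0.05 the counts of called genes, with the 2 times compared and the share of all genes called at 0.05 in parentheses, were 6 (6 and 24 h, 38.4%), 8 (0 and 24 h, 55.6%), 7 (24 and 48 h, 29.9%), 5 (48 and 72 h, 40.9%), 3 (72 and 96 h, 28.9%), 6 (96 and 120 h, 17.8%) and 8 (48 and 120 h, 57.0%), with 19 over the 6-hourly steps (8.33% of all gene and step pairs), 1 between cultures (Sox3, higher in B by 0.19, adjusted p = 0.036, beside 25.8% of all genes) and 14 of the progenitor and neuron genes between 0 and 120 h (52.2%). On the log2(CPM + 1) scale 3 genes were called from 0 to 24 h and 4 from 96 to 120 h, where low genes such as Zic1 fell short (0 to 6 h, 0.26, adjusted p = 0.19), and with voom weights 2 were called from 96 to 120 h while 7 calls were lost, those of Zic1 at 6 h (3.27, adjusted p = 0.0019) and 24 h (3.81, adjusted p = 2.1e-04), Pax6 at 24 h (adjusted p = 9.3e-04) and Irx3 at 48 h (adjusted p = 5.5e-04) against 0 h, of Vax2 between 48 and 72 h (adjusted p = 8.3e-04) and 108 and 114 h (adjusted p = 5.1e-04), and of Sox3 between 12 and 18 h (adjusted p = 5.4e-04). Counts with 1 library left out lay between 2 and 3 for 0 and 24 h (5 with all libraries). They lay between 1 and 2 for 24 and 48 h and for 48 and 72 h (3 each with all libraries). They lay between 0 and 2 for 72 and 96 h and between 1 and 2 for 96 and 120 h (1 each with all libraries). Of 276 such single values, 43 lost their call and 2 gained it. Libraries of the same letter did not deviate together at every pair of time points (correlation of deviations, mean 0.08, from -0.474 to 0.598 over 210 pairs, 47.1% above 0.1), so the letters were not taken as pairs. A fit with the letter as a replicate block kept 67 of the 69 on their side of the threshold and called 2 more, Sox3 from 0 to 6 h (1.20, adjusted p = 2.8e-05) and from 48 to 72 h (-1.29, adjusted p = 2.8e-05), with 10 in place of 9 calls over the 6-hourly steps. Without both 96 h libraries, 54 of 59 stayed and 5 were newly called. Depth limits Hesx1, Gsx1, Zic1 and early Pax6, and 2 libraries a time point limit every call.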
